A study of Mus musculus with 8 samples.

Results

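Alcam, Nrip1 and Tgm2 are protein-coding genes whose transcripts are known to respond to retinoic acid, and they were followed across 8 embryonic mouse hearts. The members are all 10 probe sets that the array annotation maps to these 3 genes, out of 22690 on the array. Alcam and Nrip1 have 2 probe sets each and Tgm2 has 6, of which 9 passed the filter on detection calls and entered the test. That filter asks for a Present call in at least 3 of the 8 arrays, and 16292 probe sets passed it. The study compared whole E10.5 hearts of 4 Dbh-/- (KO) and 4 Dbh+/+ (WT) embryos, matched for age and size, with 1 Affymetrix Mouse 430A 2.0 array for each heart. Dbh encodes dopamine beta-hydroxylase, the enzyme that makes noradrenaline from dopamine, and the Dbh-/- genotype is not limited to the heart. Living embryos were examined by ultrasound just before dissection, so the KO hearts are those of embryos alive at that time. The labels name no agent given to either group, and the deposited data hold no measurement of retinoic acid or of its receptors' activity.

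Retinoic acid is made from vitamin A in steps run by retinol and retinaldehyde dehydrogenases such as Rdh10 and Aldh1a2, and is broken down by Cyp26 enzymes. It binds nuclear receptors (RAR, paired with RXR) that sit on pairs of short DNA half-sites and change transcription of nearby genes, and in the embryo it takes part in patterning the heart's inflow region. Alcam (CD166) is an immunoglobulin-type surface protein of cell contacts, also used as a marker of early cardiomyocytes. Nrip1 (RIP140) is a corepressor that binds nuclear receptors carrying their ligand, retinoic acid receptors included. Tgm2 is tissue transglutaminase, a calcium-dependent enzyme that crosslinks proteins, and its induction by retinoic acid is a classical response of cultured cells.

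On assembly GRCm38.p6, Alcam lies at chr16:52248996-52453081, Nrip1 at chr16:76287403-76373827 and Tgm2 at chr2:158116405-158146392. Promoter windows of 250 bases upstream of the annotated start were taken from RefSeq for Alcam and for Nrip1, both read on the minus strand. They are shown because half-sites are the letters that retinoic acid receptors are known to bind. Capitals mark each match to one of 4 half-site words on either strand: the usual word AGGTCA, its variant AGTTCA, the word GGGTCA or the word GGTTCA. The windows are chr16:52453082-52453331 for Alcam and chr16:76373828-76374077 for Nrip1.
Alcam: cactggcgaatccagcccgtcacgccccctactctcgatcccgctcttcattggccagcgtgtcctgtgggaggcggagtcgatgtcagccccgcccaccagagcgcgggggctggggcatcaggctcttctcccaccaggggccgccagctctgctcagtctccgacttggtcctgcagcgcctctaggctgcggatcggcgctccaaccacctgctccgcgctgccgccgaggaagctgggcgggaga
Nrip1: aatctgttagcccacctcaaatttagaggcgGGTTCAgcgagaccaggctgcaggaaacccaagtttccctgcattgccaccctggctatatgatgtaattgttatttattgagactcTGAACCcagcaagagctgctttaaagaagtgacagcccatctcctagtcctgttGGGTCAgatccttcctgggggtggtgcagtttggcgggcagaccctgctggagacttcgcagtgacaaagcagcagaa

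The Nrip1 window held 3 matches, whose first bases lie 219, 132 and 78 bases before the start, and the Alcam window held none of the 4 words. The middle match reads TGAACC on the gene's strand, which is GGTTCA on the other. A second annotated Nrip1 start had a window at chr16:76373050-76373299 with no match. None of the 3 windows held a direct repeat of half-sites with a spacer of 1, 2 or 5 bases, the arrangements best known for RAR and RXR pairs. Single words are common: 38.6% of 32851 RefSeq windows of the same length held at least 1 of them, while 0.0883% held a direct repeat with a spacer of 5. These matches describe letters only. The deposited data carry no measurement of binding.

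The share of probe sets called Present was similar on all arrays, at 65.2% to 71.6%. The single Dbh probe set was called Absent on all 8 arrays, in KO and WT hearts alike, so it cannot check the genotype labels. All 14 cardiomyocyte markers were Present on all 8 arrays, which fits the labelled tissue. The title of each sample carries a number, 541, 569 or 570, which the labels do not explain. KO 1, KO 2 and WT 2 carry 569, KO 3, KO 4, WT 3 and WT 4 carry 541, and WT 1 alone carries 570. Hearts are numbered within genotype only to name them. WT 3 stood apart, with a summed signal of 10068 for 10 liver and endoderm markers, against 123.9 to 388.9 in the other 7 hearts.

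No Alcam, Nrip1 or Tgm2 probe set differed between KO and WT hearts past the threshold, and each probe set's KO and WT values overlapped. Over all tested probe sets, groups that do not overlap made up 0.209% with KO higher and 0.246% with KO lower. The test was limma on log2(signal + 16), where signal is the deposited MAS5 intensity. A probe set counted as called if its p, adjusted by Benjamini and Hochberg's method over all 16292 tested probe sets, was under 0.05. It called 0 of the 9 members, beside 0% of all tested probe sets. At an unadjusted p under 0.05, limma gave 0 of 9 members, beside 1.33% (217) of all tested probe sets. An unequal-variance test run on each probe set alone also called 0 of all tested probe sets after adjustment, with 116 at an unadjusted p under 0.05. Of the 9 differences, 5 lay above 0 (KO higher) and 4 below 0, and the probe sets of Tgm2 lay on both sides. The median 95% confidence interval over all tested probe sets reached 0.57 to either side on the log2 scale. For a typical probe set, a difference smaller than that would miss even an unadjusted p under 0.05. The adjusted threshold asks for a larger difference still.

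**Figure D1:**
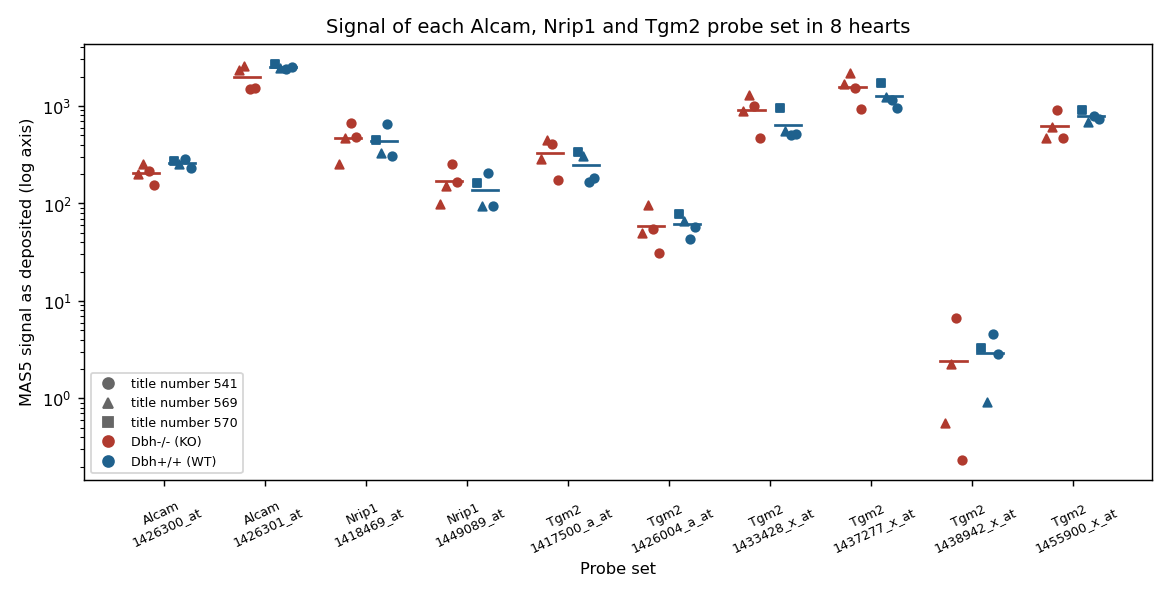
MAS5 signal as deposited (vertical log axis, arbitrary intensity units) of the 10 probe sets, with the 4 KO hearts left of the 4 WT hearts for each; points are hearts, lines are group means and the point shape gives the title number. KO and WT points overlap for every probe set, and Tgm2 1438942_x_at lies under 10 in all hearts.

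Alcam gave the most even picture of the 3 genes, with both probe sets lower on average in KO hearts, but with only some KO hearts low. The brighter probe set, 1426301_at, had signals of 2312, 2584, 1511 and 1514 in KO 1 to KO 4, against 2710, 2434, 2407 and 2538 in WT 1 to WT 4. KO 3 and KO 4 lay below all other hearts, whereas KO 2 lay above 3 of the 4 WT hearts. Its mean signal was 1980.3 ± 551 in KO hearts and 2522 ± 137 in WT hearts (SD, n = 4 each). The difference was -0.39 on the log2(signal + 16) scale, with a standard error of 0.22 and a limma adjusted p of 1.0. The mean signal of 1426301_at was higher than that of 95.2% of tested probe sets.

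The second Alcam probe set, 1426300_at, was dimmer, with signals of 202.0, 251.5, 214.0 and 155.2 in KO 1 to KO 4, against 272.3, 256.5, 288.9 and 229.9 in WT 1 to WT 4. Here 3 of the 4 KO hearts lay below all WT hearts and KO 2 lay inside the WT range. Its difference was -0.34 with a standard error of 0.29. The log2 ratio of the dimmer over the brighter probe set differed by 0.05 between KO and WT hearts (exact two-sided permutation test, p = 0.8286, adjusted p = 0.880 over the 17 pairs of probe sets within a gene). The 2 probe sets thus gave the same sign and nearly the same size of difference. Across the 8 hearts their log2 values had Pearson's r = 0.75 and Spearman's rho = 0.62 (exact permutation p = 0.0352 and 0.115, adjusted p = 0.0748 and 0.217 over 17 pairs). Without the 2 hearts farthest from the median, r was 0.60. After quantile normalization r was 0.89 and rho 0.90 (exact permutation p = 0.000570 and 0.00456, adjusted p = 0.00970 and 0.0776), and r was 0.76 without the 2 farthest hearts. No title number holds the 6 hearts that a correlation within it would need.

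Averaged over both probe sets, Alcam was -0.36 log2 in KO relative to WT hearts (exact two-sided permutation test over 70 assignments, p = 0.0857, where the smallest possible p is 0.0286). One heart decided on which side of 0.05 this test fell. Without KO 2 the difference was -0.48 with p = 0.0286, the smallest that 35 assignments allow in that exact permutation test. The difference also depended on which hearts were set against each other: it was -0.58 within title number 541 (2 KO against 2 WT hearts) and -0.08 within title number 569 (2 KO hearts against 1 WT heart). With 6 and 3 assignments, neither can pass 0.05. Tested directly as an interaction in limma, the 541-minus-569 gap of 1426301_at was -0.71 with a standard error of 0.63 and an adjusted p of 1.0. After quantile normalization, which gives every array the same distribution of values, that gap was -0.64 with a standard error of 0.31 and an adjusted p of 0.751.

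In a whole heart, fewer Alcam-expressing cells and less Alcam RNA per cell cannot be told apart. The summed signal of 12 endothelial and endocardial markers, all Present on all arrays, ran from 2962 to 6736 in KO hearts and from 4177 to 6508 in WT hearts, with KO 4 the lowest. KO 3 had an endothelial sum of 5000.4, inside the WT range. These sums are not adjusted for overall array level, and the KO 4 array was the dimmest, with a trimmed mean signal of 209.9 against 313.9 for KO 3. After quantile normalization Alcam 1426301_at was 2593, 2199, 1286 and 1908 in KO 1 to KO 4, against 2269 to 2816 in WT hearts. On that scale KO 2 also lay below all WT hearts, and KO 1 was the KO heart inside their range. The most abundant markers of that list, Tek and Flt1, are endothelial receptors, with Tek at 966.5 in KO 4 and 1363 to 2105 elsewhere. The cardiomyocyte sum, led by the myosin light chains Myl2 and Myl4, was 34961 in KO 4 and 52243 in KO 3. In WT hearts it ran from 31671 in WT 3 to 63798 in WT 1. The part of either list in the Alcam values was not tested.

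**Figure D2:**
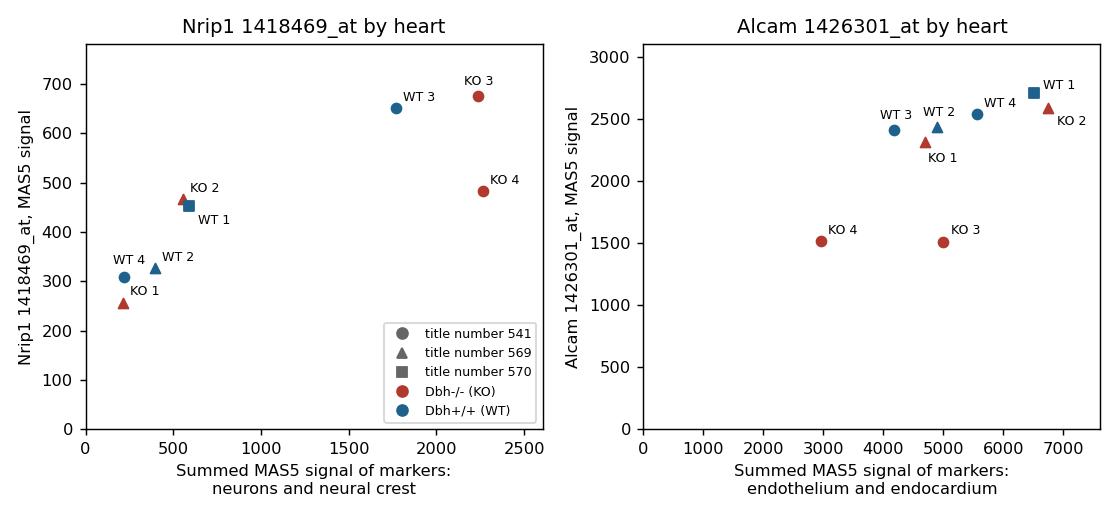
Left, Nrip1 1418469_at signal against the summed signal of 12 neuron and neural crest markers; right, Alcam 1426301_at signal against that of 12 endothelial and endocardial markers; each point is 1 heart in MAS5 intensity units. KO 3, KO 4 and WT 3 have the 3 highest Nrip1 signals and marker sums of 1770 or more, of which Crabp1 alone gives 1283 in WT 3, and KO 3 and KO 4 have the lowest Alcam signals at endothelial sums of 5000.4 and 2962.

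Nrip1 differed more among hearts of the same genotype than between genotypes. Probe set 1418469_at had signals of 256.8, 466.2, 676.8 and 482.7 in KO 1 to KO 4, against 452.8, 327.6, 651.8 and 309.4 in WT 1 to WT 4. The highest heart was KO 3 and the lowest KO 1, so that the KO hearts spanned the whole WT range. Mean signals were 470.6 ± 172 in KO and 435.4 ± 158 in WT hearts (SD, n = 4 each), a log2 difference of 0.09 with a standard error of 0.31. Probe set 1449089_at had 99.4, 152.6, 254.6 and 167.0 in KO hearts, against 161.6, 93.9, 206.1 and 93.3 in WT hearts, a difference of 0.26 with a standard error of 0.32. On these deposited signals the order of hearts was almost the same as for the first probe set.

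The 2 Nrip1 probe sets followed each other across the 8 hearts with Pearson's r = 0.96 and Spearman's rho = 0.90 (exact permutation p = 0.00119 and 0.00456, adjusted p = 0.0101 and 0.0259 over 17 pairs), and r was 0.97 without the 2 farthest hearts. After quantile normalization r was 0.93 and rho 0.69 (exact permutation p = 0.00732 and 0.0694, adjusted p = 0.0415 and 0.169). On that scale r was 0.88 without the 2 farthest hearts. On the signals as deposited, the log2 ratio of the 2 probe sets differed by -0.16 between KO and WT hearts (exact permutation p = 0.0857, adjusted p = 0.208). The mean over both was 0.18 log2 higher in KO hearts (exact permutation p = 0.629), and it was -0.03 without KO 3. Within title number 541 the gene mean differed by 0.42 and within 569 by 0.21, KO minus WT. A replicate spread of 0.53 in KO and 0.49 in WT hearts (SD of log2 values, n = 4 each) exceeded each of these differences.

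Other cell type markers and an RNA measure also differed in the hearts with high Nrip1, which all carry title number 541, as does WT 4, where Nrip1 was low. On quantile-normalized values, 1418469_at was 562.7 in KO 3, 599.8 in KO 4 and 620.5 in WT 3, against 320.7 to 376.3 in the other 5 hearts. In those 3 hearts the summed signal of 12 neuron and neural crest markers was 2237, 2265 and 1770, against 214.2 to 589.7 in the other 5. The 3 hearts were not alike on every marker of this list, of which 2 of 12 were Present on all 8 arrays and none was Absent on all. The brightest member was Crabp1, itself a retinoic acid binding protein, with 1163 and 1074 in KO 3 and KO 4 and 1283 in WT 3, against 14.6 to 156.2 in the other 5 hearts. Crabp1 thus makes up most of the WT 3 sum. Pax3, a factor of neural crest, was also high in all 3 hearts. It had 146.8, 87.2 and 203.6 in KO 3, KO 4 and WT 3, against 0.89 to 22.1 in the other 5. Dlx2, a homeobox factor of neural crest and forebrain, had 449.2 and 419.9 in KO 3 and KO 4 but 106.5 in WT 3, below KO 2 at 150.4 and WT 1 at 143.7. The neuronal tubulin Tubb3, at 10.8, was at its lowest in WT 3, and the neuronal RNA binding protein gene Elavl4 had 26.6 there, beside 26.8 in WT 2 and 31.4 to 68.6 in the other hearts.

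Some markers of red cells and mesenchyme, picked after their values were seen, were also highest in the same 3 hearts. Alas2, the red cell enzyme that starts heme synthesis, had 1267 in KO 3, 564.6 in KO 4 and 628.8 in WT 3, against 44.8 to 435.9 in the other 5 hearts. Prrx1, a homeobox factor of mesenchyme, had 1063 and 830.5 in KO 3 and KO 4 and 588.1 in WT 3, against 11.5 to 160.8 in the other 5. The red cell factor Gata1 had 527.9, 284.4 and 308.1 in KO 3, KO 4 and WT 3, against 38.0 to 194.5. The mesenchyme factor Twist1 had 916.1, 631.0 and 742.4, against 270.5 to 540.5. Other members did not follow, such as the red cell factor Tal1, with 234.7 in KO 4 and 401.2 in KO 2. The summed signals of the whole lists did not set these 3 hearts apart in the same way. The 10 erythroid markers summed to 26776, 16274 and 20954 in KO 3, KO 4 and WT 3 and to 11872 to 19842 elsewhere. Most of that sum came from the globins Hbb-bh1 and Hbb-y. The sum of the 12 cushion mesenchyme markers went the other way in KO 4 and WT 3. It was 8271 and 7998 there, below the 8463 to 12476 of the other 5 hearts, and 12327 in KO 3. The brightest members, Vcan and Tbx20, were also lowest in KO 4 and WT 3, unlike Prrx1 and Twist1.

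A measure of RNA and labelling quality was lower in the same 3 hearts. The deposited 5' over 3' signal ratio of the actin control was 0.390 in KO 3, 0.401 in KO 4 and 0.407 in WT 3, against 0.483 to 0.527 in the other 5 hearts. The part of these cell types or of RNA quality in the Nrip1 values was not tested. Both high and low Nrip1 hearts occurred in each genotype, as the plot of Nrip1 against marker sums shows.

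Tgm2 was the least even of the 3 genes, because its probe sets lay on both sides of 0. Probe set names ending in _a_at mark sequences shared by several transcripts of a gene, and those ending in _x_at mark probes that may also match other genes. Every Tgm2 probe set is of one or the other kind. Tgm2 1438942_x_at was called Absent on all 8 arrays, with signals of 0.23 to 6.68 in KO hearts and 0.92 to 4.57 in WT hearts, and was not tested.

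The brightest Tgm2 probe set, 1437277_x_at, had signals of 1664, 2199, 1542 and 932.8 in KO 1 to KO 4, against 1723, 1226, 1165 and 952.0 in WT 1 to WT 4. Its mean signal was higher than that of 90.8% of tested probe sets. KO 2 was the highest heart and KO 4 the lowest, so that both extremes were KO hearts. The difference was 0.29 with a standard error of 0.26. Probe set 1433428_x_at had 893.0, 1286, 998.4 and 470.4 in KO hearts, against 960.2, 559.8, 509.1 and 512.4 in WT hearts, a difference of 0.48 with a standard error of 0.30. In 3 of 4 WT hearts this probe set lay between 509.1 and 559.8, while WT 1 lay among the KO hearts.

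Probe set 1417500_a_at had 284.1, 451.2, 405.4 and 172.2 in KO hearts, against 334.4, 308.8, 164.4 and 181.8 in WT hearts, a difference of 0.36 with a standard error of 0.32. KO 2 and KO 3 were above all WT hearts and KO 4 was near the lowest of them. The dimmest tested probe set, 1426004_a_at, ran from 30.9 to 97.0 in KO hearts and from 43.4 to 77.7 in WT hearts, with a difference of -0.11 and a standard error of 0.29. Probe set 1455900_x_at went against the 3 higher ones, with 466.8, 614.1, 917.4 and 469.1 in KO hearts, against 918.4, 687.7, 790.3 and 732.4 in WT hearts. There 3 of 4 KO hearts lay below all WT hearts and KO 3 lay just under the highest of them. Its difference was -0.38 with a standard error of 0.28.

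**Figure D3:**
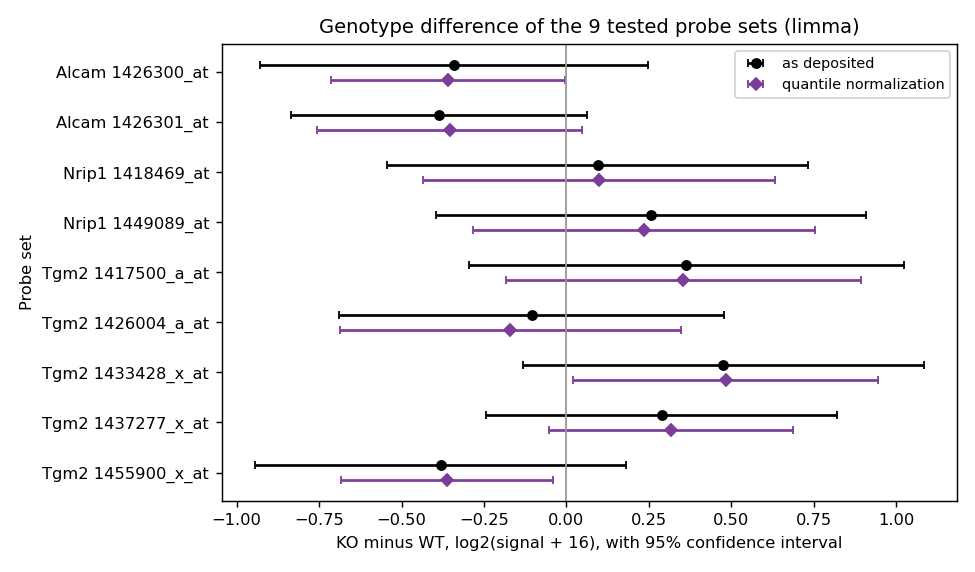
KO minus WT difference of each tested probe set on the log2(signal + 16) scale (horizontal axis), with its 95% confidence interval from limma, for the signals as deposited (black circles) and after quantile normalization (purple diamonds). Both Alcam probe sets lie below 0, both Nrip1 probe sets above 0, and the Tgm2 probe sets run from -0.38 to 0.48 as deposited; every interval of the deposited signals includes 0.

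Averaged over all 6 probe sets, Tgm2 differed by 0.10 log2 between KO and WT hearts (exact two-sided permutation test, p = 0.657), and by -0.03 without KO 2. Within title number 541 the gene mean differed by 0.12 and within 569 by 0.25, KO minus WT. This average takes in probe sets whose differences had opposite signs. The log2 ratio of 1433428_x_at over 1455900_x_at was 0.86 higher in KO hearts (exact permutation p = 0.0571, adjusted p = 0.208). In signals, that ratio was 1.91, 2.09, 1.09 and 1.003 in KO 1 to KO 4, against 1.05, 0.814, 0.644 and 0.700 in WT 1 to WT 4. Only KO 4 overlapped the WT hearts, through WT 1.

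The ratio of 1417500_a_at over 1426004_a_at gave the smallest p of all pairs, with a log2 difference of 0.47 and groups that did not overlap on the log2(signal + 16) scale (exact permutation p = 0.0286, the smallest possible, adjusted p = 0.208). On plain signals the ratio was 5.66, 4.65, 7.34 and 5.57 in KO hearts, against 4.31, 4.68, 3.79 and 3.17 in WT hearts, where KO 2 fell just below WT 2. The ratio of 1426004_a_at over 1433428_x_at behaved the other way, with groups that did not overlap on plain signals (0.0553 to 0.0755 in KO hearts, 0.0809 to 0.118 in WT hearts) but did on the log2(signal + 16) scale (difference -0.58, exact permutation p = 0.0571, adjusted p = 0.208). The adjusted p of the 17 pairs was 0.208 at the lowest, so no 2 probe sets of a gene were shown to give different genotype differences. Because no exact permutation p can fall below 0.0286, a pair can pass the adjusted threshold only if many of the 17 reach that minimum. The adjusted test could thus hardly tell 2 probe sets apart, and it does not show that they agree. With a pseudocount of 1 in place of 16, 1417500_a_at over 1426004_a_at had an exact permutation p of 0.0571 and 1426004_a_at over 1433428_x_at one of 0.0286, both with an adjusted p of 0.243.

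Of the 10 pairs of tested Tgm2 probe sets, 3 had an adjusted p under 0.05 for Pearson's r in the exact permutation test, all among 1417500_a_at, 1433428_x_at and 1437277_x_at. Across the 8 hearts, 1433428_x_at and 1437277_x_at had Pearson's r = 0.96 and Spearman's rho = 0.90 (exact permutation p = 0.000645 and 0.00456, adjusted p = 0.0101 and 0.0259 over 17 pairs), and r was 0.92 without the 2 farthest hearts. By contrast, 1433428_x_at and 1455900_x_at had r = 0.17 and rho = 0.21 (exact permutation p = 0.670 and 0.619, adjusted p = 0.744 and 0.706), and 0.08 without the 2 farthest. After quantile normalization that r was -0.58 (exact permutation p = 0.142, adjusted p = 0.274). On that scale, of the 10 Tgm2 pairs, only 1433428_x_at and 1437277_x_at had an adjusted p under 0.05 for r, with r = 0.92 and rho = 0.83 (exact permutation p = 0.00159 and 0.0167, adjusted p = 0.0135 and 0.107).

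**Figure D4:**
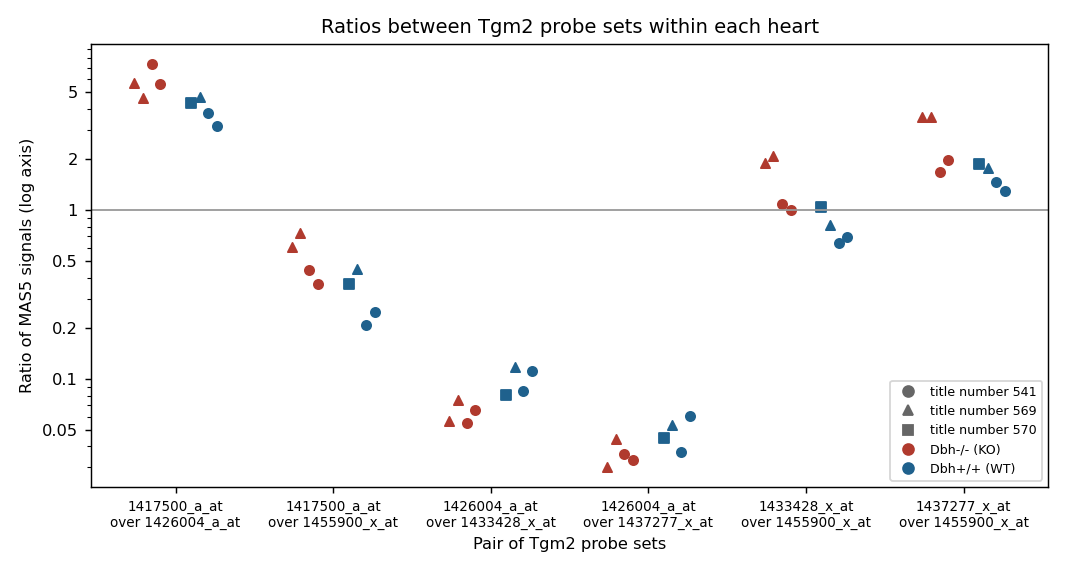
Ratio of MAS5 signals (vertical log axis, no unit) within each heart for the 6 pairs of tested Tgm2 probe sets with the smallest exact permutation p, KO hearts left of WT hearts; points are hearts and shapes give the title number. Ratios of 1433428_x_at and 1437277_x_at over 1455900_x_at are highest in KO 1 and KO 2, and the ratio of 1417500_a_at over 1426004_a_at runs from 4.65 to 7.34 in KO hearts and from 3.17 to 4.68 in WT hearts.

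Removing the differences in overall array level narrowed the median 95% confidence interval over all tested probe sets to 0.41 on either side, and brought some members past an unadjusted p under 0.05. After quantile normalization, limma gave 3 of 9 members at that level, beside 2.14% of all tested probe sets, and still called 0 of 9 after adjustment. Those 3 were Alcam 1426300_at at -0.36, Tgm2 1455900_x_at at -0.36 and Tgm2 1433428_x_at at 0.48, with adjusted p of 0.999 each. All members still overlapped between KO and WT hearts. Groups that do not overlap made up 0.786% of tested probe sets with KO higher and 0.706% with KO lower on that scale.

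The title number as a block together with quantile normalization gave 5 of 9 members at an unadjusted p under 0.05, beside 4.6% of all tested probe sets. They were both Alcam probe sets at -0.45, Tgm2 1433428_x_at at 0.54, 1437277_x_at at 0.31 and 1455900_x_at at -0.33, each with a limma adjusted p of 0.970. Within title number 569 alone, again after quantile normalization, 1433428_x_at differed by 0.84 and 1437277_x_at by 0.55, with limma adjusted p of 0.164 and 0.201. There 3 of 9 members had an unadjusted p under 0.05, beside 11.9% of all tested probe sets. That setting rests on 1 WT heart, whose spread is taken to be that of the KO pair.

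The authors' deposited table gives a signed fold of WT over KO mean signals, negative where KO is higher. In the authors' deposited table, Alcam stood at 1.27 for both probe sets with p = 0.0613 and 0.142, Nrip1 at -1.08 and -1.21 with p = 0.773 and 0.511. For Tgm2 the authors' deposited table runs from -1.44 (1433428_x_at, p = 0.226) to 1.27 (1455900_x_at, p = 0.227). None of the 10 members had a deposited p under 0.05 in the authors' deposited table, beside 1.24% of all 22690 probe sets.

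Genes of retinoic acid synthesis and breakdown showed no called change either. Of 23 listed genes, 13 were tested and 0 passed limma's threshold in either direction, with 10 above 0, 3 below and a median of 0.11, beside a median of 0.01 over all tested probe sets. Rdh10, which makes retinaldehyde from retinol, had 209.0 ± 90.4 in KO hearts and 121.9 ± 47.4 in WT hearts (SD, n = 4 each), a log2 difference of 0.68. Aldh1a2, which makes retinoic acid from retinaldehyde, had 78.3 ± 18.9 in KO and 51.4 ± 18.5 in WT hearts, a log2 difference of 0.51. Bco1, which cleaves beta-carotene to retinaldehyde, had 6.37 ± 2.97 in KO and 17.3 ± 6.87 in WT hearts, a log2 difference of -0.56 at signals near background.

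Retinoid carriers and receptors gave 0 passed of 13 tested genes, with 5 above 0, 8 below and a median of -0.01. The carriers Rbp4 and Ttr, with log2 differences of -1.15 and -1.03, were set by WT 3, which had 720.5 and 1964 against means of 17.3 and 29.4 in KO hearts. Crabp2, which delivers retinoic acid to receptors, differed by 0.93, at 40.2 to 1323 in KO hearts and 18.9 to 859.0 in WT hearts. On the signals as deposited, 2 of the 13 passed as lower in KO hearts under the title number block, beside 0.246% of all tested probe sets. Without WT 3, 2 passed as higher (0.442% of all), and within title number 541 alone 2 passed as higher and 2 as lower (0.368% of all). None of the 13 passed under the block or within 541 after quantile normalization.

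A list of genes known to respond to retinoic acid also gave 0 passed, of 23 tested, with 15 above 0, 8 below and a median of 0.17. It shares Rarb, Cyp26a1, Dhrs3, Stra6 and Crabp2 with the lists above, so the same gene can be counted in more than 1 list. The smallest p values belonged to the T-box factor Tbx1 (0.65), the forkhead factor Foxc1 (0.67) and the homeobox gene Hoxb1 (0.52, log2 differences). Foxc1 had 510.4 ± 191 in KO and 339.6 ± 214 in WT hearts, while Tbx1 and Hoxb1 averaged under 30 in both groups. Over all tested probe sets, 52.0% were above 0. Without WT 3, 2 of the 23 passed as higher in KO hearts, beside 0.442% of all tested probe sets. Within title number 541, 2 passed as higher on the deposited signals, beside 0.368% of all, and 0 after quantile normalization.

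Lists built around each member's own biology gave the same result of 0 passed. Of 11 tested immunoglobulin adhesion genes, 5 were above 0 and 6 below with a median of -0.03, led by Vcam1 at -0.44, a leukocyte and epicardial adhesion receptor, and by the neural adhesion genes L1cam at 0.27 and Nrcam at 0.27. Of 12 tested nuclear receptor partners and corepressors of NRIP1, 4 were above 0 and 8 below with a median of -0.06, led by the receptor Esrra at 0.29, the coactivator Ppargc1a at -0.38 and the deacetylase Hdac5 at -0.29. Of 9 tested transglutaminase relatives and TGM2 partners, 5 were above 0 and 4 below with a median of 0.05. That list was led by the red cell protein Epb42 at 0.86, the heparan sulphate proteoglycan Sdc4 at -0.36 and the factor XIII subunit F13a1 at 0.31, and without WT 3 it had 1 gene passed as higher, beside 0.442% of all tested probe sets.

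The genes whose patterns were most like each member were sought among 9125 other named genes, on quantile-normalized log2 values over the 8 hearts, which share their array and dissection. For Alcam 1426301_at they were Fam107b (r = 0.99), the adaptor gene Crk (0.99) and Cnep1r1 (0.99), and 58 genes had r above 0.9. Fam107b had 491.3, 595.8, 326.7 and 351.1 in KO hearts, against 653.6, 502.1, 535.8 and 553.3 in WT hearts. It was thus also lowest in KO 3 and KO 4. For Nrip1 1418469_at they were Rgs18 (r = 0.99), a regulator of G protein signalling in blood cells, Septin3 (0.99), a septin known from neurons, and Zkscan1 (0.99), with 227 genes above 0.9.

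Septin3 had 148.4 and 118.0 in KO 3 and KO 4 and 150.2 in WT 3, against 28.9 to 60.0 in the other 5 hearts, the same hearts in which Nrip1 was high. For Tgm2 1437277_x_at they were the cell cycle inhibitor Cdkn1c (r = 0.95), Clca3a1 (0.94) and the proton pump subunit Atp6v1e1 (0.93), with 19 genes above 0.9. These probe sets, the brightest of each gene, were not alike. Between them, r was -0.61 for Alcam and Nrip1, 0.08 for Alcam and Tgm2 and -0.60 for Nrip1 and Tgm2. For Tgm2 this depends on the probe set. On that scale 1437277_x_at and 1455900_x_at had r = -0.72 (exact permutation p = 0.0435, adjusted p = 0.123). The gene means of Alcam, Nrip1 and Tgm2 differed between KO and WT hearts by -0.36, 0.18 and 0.10 log2, none of them past the test.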

How the data were processed

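The authors' deposited values are MAS5 signal intensity values per probe set, 1 array per heart, per the file headers. MAS5's version and scaling target are not given in the sources used here. The value table equals the whole-series export within 5e-07. Detection calls and their p-value per array come from that export, per the file headers. The authors' deposited fold is a signed score (WT over KO), with a p-value, per the file headers. The fraction of Present calls and the 5' over 3' ratio of control transcripts were taken from the deposited quality report, per the file headers. The platform annotation gave the gene names, brought up to date through gene identifiers: 20393 probe sets have 1 symbol, 691 several and 1606 none. Sequences and positions are RefSeq's on GRCm38.p6; Tgm2 had no entry among the promoter sequences.

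Groups come from the genotype labels. Using limma 3.58.1 under R 4.3.3 with statmod 1.5.0, log2(signal + 16) was fitted as KO minus WT, variances being moderated along a trend with mean signal, and the fit was tested on simulated data. Gene means, ratios and correlations used exact two-sided permutation tests (Python 3.11.15), with Benjamini-Hochberg adjustment over 17 pairs. Nothing says whether embryos shared a litter, and p-values measure the spread between these hearts. Precision is limited by how few arrays there are.

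The members and lists were chosen with earlier results of these data known. Named genes are, per list, up to 3 with the smallest limma p, the 3 genes most like each member, and, where a cell type list touches a result, its 2 most abundant. Alternatives were other normalizations, pseudocounts, filters, variance models and probe set choices, the title number as a block or taken alone, and each heart left out. The study's published account concerns retinoic acid metabolism, and its values for these genes are not used here.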

Additional observations from a re-analysis of the deposited data

Results flagged for a closer look

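The signal of Tgm2 1433428_x_at in WT 1 was 960.2, against 509.1 to 559.8 in the other 3 WT hearts, a gap to the nearest of them that exceeds Dixon's 95% critical value for 4 samples. In KO hearts the same probe set ran from 470.4 to 1286. WT 1 is the only heart with title number 570 and had one of the highest overall array levels, a trimmed mean signal of 313.1 against 209.9 to 316.3 over all 8 hearts. After quantile normalization 1433428_x_at was 790.1 in WT 1 and 485.4 to 616.0 in the other WT hearts. Without WT 1 the KO minus WT difference of this probe set was 0.69, with a limma adjusted p of 1.0. In all, 26 groups of 4 hearts were examined in this way, and chance flags about 1 in 20.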

How the results depend on the processing

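The count of probe sets past the threshold was 0 as deposited and 2 when tested probe sets were Present in all 8 arrays, 40 with the title number as a replicate block, 60 within title number 541 and 3 within 569. It was 1 within 541 and 1 within 569 after quantile normalization, both chosen after seeing the data, and 0 to 72 with 1 heart left out (72 without WT 3, 30 without KO 1). None of these was an Alcam, Nrip1 or Tgm2 probe set. Leaving out 1 heart gave -0.48 to -0.25 for the Alcam mean, -0.026 to 0.40 for Nrip1 (-0.026 without KO 3) and -0.032 to 0.29 for Tgm2 (-0.032 without KO 2).

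With the title number as a replicate block, the gene means differed by -0.38 for Alcam, 0.34 for Nrip1 and 0.18 for Tgm2 (exact permutation p = 0.167, 0.444 and 0.444), and with quantile normalization too by -0.45, 0.25 and 0.10. Deviations from the group means were correlated between hearts of different genotype. With the same title number, r was -0.18 to 0.52 in 6 pairs, with a median of 0.16. With different title numbers, r was -0.51 to 0.36 in 10 pairs, with a median of -0.15. The median was thus higher for the same number, but the ranges overlap and the labels do not explain the numbers. They are therefore used as an alternative block and not as a pairing.

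Among single probe sets, 199 alternative values kept sign and call and 8 turned sign, none past the threshold. Alcam 1426301_at was 0.0061 within 569, and Nrip1 1418469_at ran from -0.10 (without KO 3) to 0.35 with 1 heart left out, below 0 also without WT 2 and without WT 4, and was -0.012 within 569 after quantile normalization. Tgm2 1426004_a_at ran from -0.33 to 0.091 (without KO 4) with 1 heart left out and was 0.076 within 569, or 0.0085 after quantile normalization. Among ratios of the 12 pairs in which both probe sets were tested, 159 values kept their sign and 9 did not; of the 5 pairs with the Absent Tgm2 1438942_x_at, 1426004_a_at over it, for one, was -0.059 as deposited and 0.32 with a pseudocount of 1. The Alcam ratio was -0.0051 after quantile normalization, -0.18 within 569 and -0.092 (without KO 3) to 0.14 with 1 heart left out, below 0 also without WT 4. The ratio of Tgm2 1417500_a_at over 1433428_x_at was 0.16 within 541 and -0.19 to 0.050 (without WT 2) with 1 heart left out. That over 1437277_x_at was -0.43 within 569 and -0.059 (without WT 3) to 0.20, below 0 also without KO 3. The causes were not tested.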
